A study of Mus musculus with 6 samples.

Results

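The collagen genes were followed in RNA-seq libraries of macrophages that lacked or carried the scavenger receptor MSR1. They were taken as every gene whose symbol is Col, a number, a and a number, which gave 44 of the 52550 genes counted. The libraries came from mouse bone marrow cells that had been grown with 25 ng/ml M-CSF, the growth factor that turns marrow progenitors into macrophages, for 7 days. The macrophages then shared a transwell, in which a porous membrane parts the cells, with bone marrow stem cells (BMSCs) for 48 h. In 3 libraries (MSR1 KO) the macrophages came from MSR1 KO mice on the C57BL/6 background, and in 3 libraries (MSR1 WT) they came from mice of the same background. The BMSCs, the M-CSF and the transwell were common to both groups, and neither the age of the mice nor the number of mice behind a library was given, so p-values measure only the spread between these libraries.

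Collagens are the main structural proteins of the extracellular matrix. Their chains carry long stretches in which glycine recurs at regular spacing, and such stretches wind around each other into a rope-like helix. Fibrillar collagens form the banded fibres of bone, skin and tendon, type IV collagens form the sheet of basement membranes, type VI collagens form beaded filaments close to cells, and FACIT collagens sit on the surface of fibres and have interrupted helices. Type I collagen is made in quantity by osteoblasts, fibroblasts and marrow stromal cells, whereas macrophages are better known for taking up and degrading collagen.

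Collagen transcripts were mostly scarcer in the MSR1 KO libraries, and none was called higher. Of the 29 collagen genes with enough counts to be tested, 6 were lower at an adjusted p under 0.05 (20.7%) by edgeR's quasi-likelihood test with Benjamini-Hochberg adjustment over 16402 genes, against 2.66% of all tested genes. These were the type VI genes Col6a1, Col6a2 and Col6a3, the short-chain gene Col8a1, the FACIT gene Col12a1 and the cartilage-type fibrillar gene Col2a1. The count was 2 without MSR1 KO replicate 1 or replicate 3, 0 without MSR1 WT replicate 1, 3 without MSR1 WT replicate 2, 4 without MSR1 WT replicate 3 and 7 without MSR1 KO replicate 2. At an adjusted p under 0.05, 0 collagen genes were higher, against 2.25% of all tested genes, and at an unadjusted p under 0.05 or by DESeq2's Wald test the count was also 0. With the study's definition of a changed gene (more than 1.5-fold apart, with p under 0.05 before adjustment), 10 collagen genes were lower (34.5%) and 0 were higher, against 5.05% and 3.59% of all tested genes. The lower genes by this definition were the same 6 together with Col3a1, Col6a4, Col14a1 and Col16a1. In 13 of the 29 genes (44.8%) the highest MSR1 KO library was under the lowest MSR1 WT library, and in 0 the lowest MSR1 KO library was over the highest MSR1 WT library, against 13.4% and 12.1% of all tested genes. The log2 fold change (MSR1 KO minus MSR1 WT) was below 0 in 25 of the 29, with a median of -0.39 against -0.0023 over all tested genes.

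**Figure D1:**
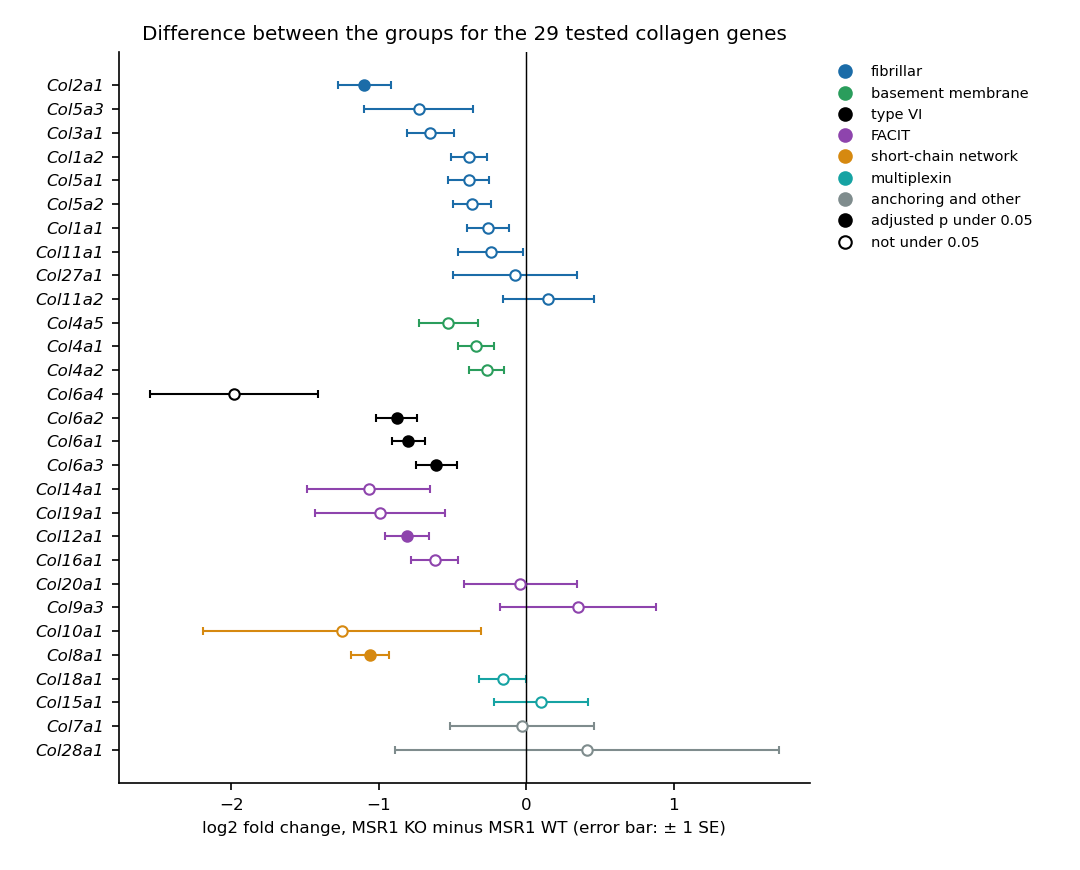
The log2 fold change of each tested collagen gene is plotted with its standard error, by class, and filled points have an adjusted p under 0.05. The 6 filled points lie between -1.10 and -0.61, and the fibrillar genes Col1a1 and Col1a2 lie closer to 0 at -0.26 and -0.39.

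The remaining 15 collagen genes did not enter the test. Col6a5, Col6a6, Col9a1, Col9a2, Col13a1 and Col26a1 had 0 counts in every library, which allows up to 3 counts per library, or 0.083 CPM (counts scaled to library size) in the shallowest of them. Counts were present but few for Col4a3, Col4a4, Col4a6, Col8a2, Col17a1, Col22a1, Col23a1, Col24a1 and Col25a1, with at most 16 counts in any library. Another 6 genes were tested although their mean over the libraries was under 1 CPM (Col6a4, Col7a1, Col9a3, Col10a1, Col19a1 and Col28a1). The other 23 tested genes had a mean of at least 1 CPM and are described by class.

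The classes differ in how the helix is built, and the annotated coding sequences show it. In the longest coding sequence of each gene, runs of at least 5 consecutive glycine-X-Y triplets were counted. The longest run was 337 to 344 triplets in Col1a1, Col1a2, Col2a1, Col3a1, Col5a1, Col5a2, Col5a3, Col11a1 and Col11a2, and 216 and 217 triplets in the remaining fibrillar genes Col24a1 and Col27a1. In the 6 type IV genes the repeat was broken into 22 to 27 runs of at most 66 triplets, which together held 74.9% to 78.8% of the codons. Col6a1 and Col6a2 each had a longest run of 87 triplets and Col6a3 one of 45, and in Col6a3 the runs held only 10% of the 3284 codons. Col12a1, whose 3065 codons encode mostly non-helical domains, had a longest run of 32 triplets and 8.12% of its codons in runs. Col8a1 had 9 runs in 744 codons, the longest of 60 triplets. The 6 genes lower at an adjusted p under 0.05 thus had longest runs between 32 and 339 triplets and belonged to 4 classes.

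**Figure D2:**
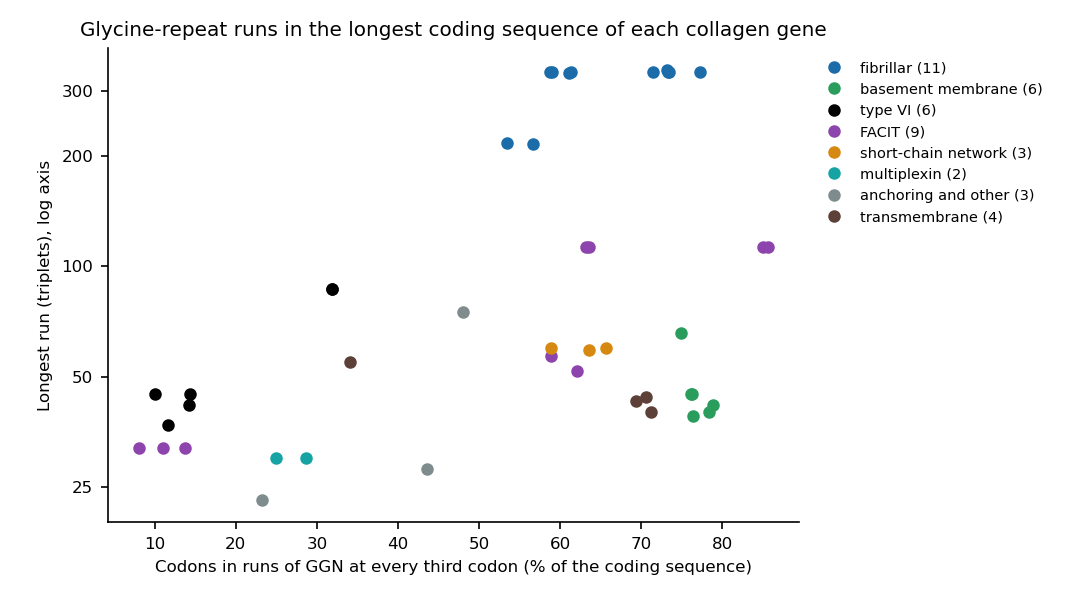
Each of the 44 collagen genes is placed by the share of its codons in glycine-repeat runs (%) and by its longest run (triplets, log axis), coloured by class. The 11 fibrillar genes stand at the top with runs of 216 to 344 triplets, and the 6 type IV genes are grouped at 74.9% to 78.8% with runs of 39 to 66.

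Promoter sequences are shown for the lower genes that had an entry in the RefSeq promoter table, beside Col3a1 as a fibrillar gene that did not pass the adjusted test. Of the 44 collagen genes, 35 had a window from 250 bases before to 50 after the start, and Col1a1, Col2a1, Col5a2 and Col12a1 had none. The windows were searched on both strands, in the 250 bases before the start, for the TATA box (TATAAA), the GC box (GGGCGG), the CCAAT box (CCAAT), an AP-1 motif (TGANTCA) and a TEAD motif (GGAATG). The bases before the outermost annotated start follow, read 5′ to 3′ on the gene's strand (all but Col3a1 on the minus strand) from GRCm38.p6, with matches in capitals and no 2 motifs overlapping. Col8a1 is from chr16:57754738-57754987, Col6a1 from chr10:76726169-76726294, Col6a2 from chr10:76623631-76623880, Col6a3 from chr1:90843972-90844221 and Col3a1 from chr1:45311288-45311537.
Col8a1: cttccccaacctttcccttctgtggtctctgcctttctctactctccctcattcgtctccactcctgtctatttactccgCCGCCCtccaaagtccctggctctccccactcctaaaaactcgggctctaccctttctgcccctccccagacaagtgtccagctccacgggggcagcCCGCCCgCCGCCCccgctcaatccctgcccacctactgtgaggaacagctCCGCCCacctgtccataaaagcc
Col6a1: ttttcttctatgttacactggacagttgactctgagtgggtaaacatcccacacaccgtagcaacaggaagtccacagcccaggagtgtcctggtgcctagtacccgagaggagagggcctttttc
Col6a2: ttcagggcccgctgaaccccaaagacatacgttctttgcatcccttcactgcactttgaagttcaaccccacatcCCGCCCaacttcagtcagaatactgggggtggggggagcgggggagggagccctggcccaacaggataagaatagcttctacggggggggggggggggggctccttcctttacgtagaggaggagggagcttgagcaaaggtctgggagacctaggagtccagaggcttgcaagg
Col6a3: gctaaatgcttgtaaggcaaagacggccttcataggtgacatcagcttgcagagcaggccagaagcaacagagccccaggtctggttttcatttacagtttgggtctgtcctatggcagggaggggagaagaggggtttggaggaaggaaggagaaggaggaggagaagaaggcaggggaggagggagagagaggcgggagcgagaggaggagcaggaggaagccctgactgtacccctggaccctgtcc
Col3a1: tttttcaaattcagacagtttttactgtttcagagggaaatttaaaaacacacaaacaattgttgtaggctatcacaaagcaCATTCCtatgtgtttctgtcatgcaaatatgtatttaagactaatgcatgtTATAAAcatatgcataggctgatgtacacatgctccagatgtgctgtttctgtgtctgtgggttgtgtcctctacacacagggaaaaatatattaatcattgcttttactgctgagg
Col8a1 held 4 GC boxes and Col6a2 held 1, Col6a3 had no match, and Col3a1 held 1 TATA box and 1 TEAD motif. For Col6a1 only 126 bases are shown, because its RefSeq start lies inside the longer gene of the GENCODE annotation, and the AP-1 match of its window fell in the part not shown. The TEAD match listed for Col6a2 also fell in another window, at a start inside the gene. Among the 23 tested collagen genes with a window, the GC box was found in 14, the CCAAT box in 10, the TEAD motif in 4, the TATA box in 3 and the AP-1 motif in 1. Among all 32851 windows of the table the shares were 32.7%, 33.8%, 12.6%, 12.4% and 6.75%. These shares are per window, whereas a collagen gene was counted when any of its windows matched, and Col6a2 and Col18a1 had more than 1. None of the motifs was found in all 4 of the lower genes that had a window. These are matches of letters and not measured binding sites.

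The fibrillar genes were the most abundant class, with 69.6% to 74.8% of all collagen counts, and 9 of the 10 tested had log2 fold changes below 0, of which 1 passed the adjusted test. Col1a1 and Col1a2 encode the chains of type I collagen, the main protein of bone matrix. Col1a1 (chromosome 11, 94936224 to 94953042) had 15416, 23514 and 20991 counts in MSR1 KO replicates 1 to 3 and 27323, 24213 and 24135 in MSR1 WT replicates 1 to 3. After scaling for library size its level was 490.5 ± 87.5 CPM against 586 ± 76.2 CPM (SD, n = 3 each), and the groups overlapped. Its log2 fold change was -0.26 (SE 0.14, adjusted p = 0.373 by edgeR with Benjamini-Hochberg adjustment). Col1a2 (chromosome 6, 4504814 to 4541544) had 16506, 24469 and 22046 counts in MSR1 KO and 30448, 29977 and 27430 in MSR1 WT. It was lower in every MSR1 KO library than in any MSR1 WT library after scaling, at 516 ± 85.6 against 678 ± 54.7 CPM, with a log2 fold change of -0.39 (SE 0.12, adjusted p = 0.111 by edgeR).

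Col3a1 encodes type III collagen, which mixes with type I in soft tissues and early repair matrix. It had 3643, 5514 and 4928 counts in MSR1 KO against 8492, 6876 and 7959 in MSR1 WT, and its groups did not overlap after scaling. Its log2 fold change was -0.65 (SE 0.16), with an adjusted p of 0.0573 by edgeR that ended under 0.05 in 4 of 12 alternative analyses. Col5a1 and Col5a2 encode type V collagen, which seeds type I fibrils and sets their width. Counts of Col5a1 were 3048, 4368 and 3882 against 5723, 4922 and 5029, and those of Col5a2 were 7878, 11837 and 11004 against 15038, 13784 and 13202. In both genes MSR1 KO replicate 2 lay above MSR1 WT replicate 2 after scaling. The log2 fold changes were -0.39 for Col5a1 and -0.37 for Col5a2, with adjusted p of 0.172 and 0.158 by edgeR. Col5a3 was counted at 24, 36 and 71 against 63, 99 and 65, a log2 fold change of -0.73 (SE 0.37).

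Col2a1, the collagen of cartilage, was the fibrillar gene that passed the test. It lies on chromosome 15 from 97975602 to 98004695 and had 140, 153 and 182 counts in MSR1 KO against 405, 409 and 273 in MSR1 WT. The MSR1 KO libraries sat close together at 3.89 ± 0.0378 CPM, whereas the MSR1 WT libraries held 8.35 ± 1.62 CPM (SD, n = 3 each). Its log2 fold change was -1.10 (SE 0.18, adjusted p = 0.0209 by edgeR with Benjamini-Hochberg adjustment), and the call was lost in 6 of 12 alternative analyses, where it reached an adjusted p of 0.0889. The defining chondrocyte markers were at or near 0 beside it: Acan had 5 counts in MSR1 KO replicate 2 and 0 elsewhere, and Comp and Matn1 had at most 44 counts in any library. The whole chondrocyte marker list summed to 1.81 to 2.36 CPM in MSR1 KO and 2.03 to 2.74 CPM in MSR1 WT, and its part in the Col2a1 counts was not tested. Col11a1, Col11a2 and Col27a1 had log2 fold changes of -0.24, 0.15 and -0.08 with overlapping groups, and means of 2.02 to 9.15 CPM. Over the 10 tested fibrillar genes, 1 was lower at an adjusted p under 0.05 and 2 by the study's definition (2.66% and 5.05% of all tested genes). Their median log2 fold change was -0.38.

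**Figure D3:**
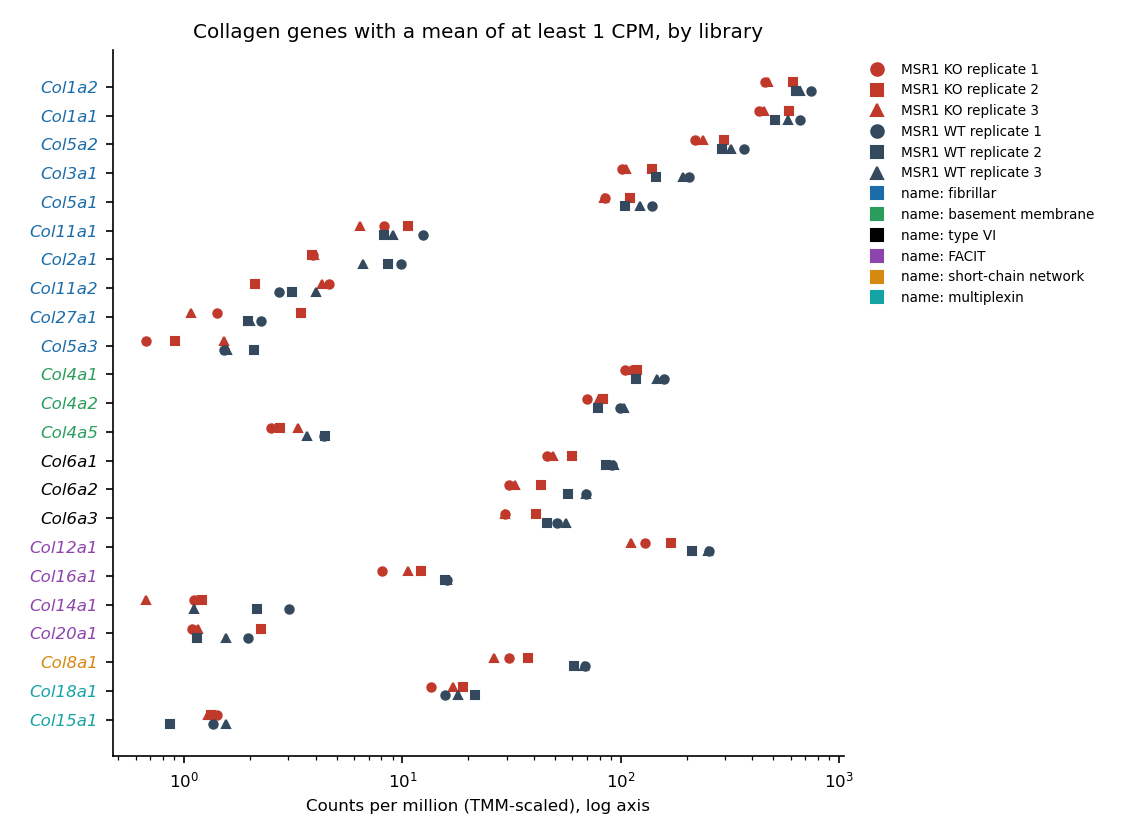
Scaled CPM (log axis) of the 23 collagen genes with a mean of at least 1 CPM is plotted for every library, MSR1 KO in red and MSR1 WT in dark blue, with a symbol for each replicate and names coloured by class. In Col6a1, Col6a2, Col6a3, Col8a1, Col12a1 and Col2a1 all 3 red points lie left of all 3 dark points, and the square of MSR1 KO replicate 2 is the highest red point in 18 of the 23 genes.

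The 3 tested genes of basement membrane collagen had log2 fold changes between -0.53 and -0.27, with a median of -0.34, and none passed the adjusted test. Col4a1 and Col4a2 encode the chains of the common type IV network and lie head to head on chromosome 8, where the annotated starts share 22 bases. Col4a1 had 3761, 4742 and 5138 counts in MSR1 KO against 6524, 5537 and 6072 in MSR1 WT, and Col4a2 had 2506, 3301 and 3678 against 4077, 3748 and 4238. In both, MSR1 KO replicate 2 exceeded MSR1 WT replicate 2 after scaling, so that the groups overlapped. The log2 fold changes were -0.34 and -0.27, with SE 0.12 in each and adjusted p of 0.161 and 0.247 by edgeR. Col4a5, on the X chromosome, had 90, 110 and 154 against 181, 209 and 151 counts, a log2 fold change of -0.53 (SE 0.20) with no overlap after scaling. The 3 genes passed an unadjusted p under 0.05, and 0 of the 3 passed by DESeq2's adjusted test. The chains of the kidney and eye type IV networks were nearly silent, with 0 to 14 counts for Col4a3, Col4a4 and Col4a6.

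The type VI collagen genes differed together. The chains Col6a1, Col6a2 and Col6a3 assemble together into filaments that connect cells with the surrounding matrix, and all 3 were lower in MSR1 KO. Col6a1 (chromosome 10, 76708792 to 76726168) had 1650, 2370 and 2272 counts in MSR1 KO and 3742, 4057 and 3841 in MSR1 WT. At 51.5 ± 7.15 against 89.7 ± 3.84 CPM the groups were well apart, with a log2 fold change of -0.80 (SE 0.11, adjusted p = 0.0126 by edgeR with Benjamini-Hochberg adjustment). Its neighbour Col6a2 (76595762 to 76623630), 85161 bases away on the same strand, had 1098, 1723 and 1527 against 2860, 2721 and 2865 counts and a log2 fold change of -0.88 (SE 0.14, adjusted p = 0.0204 by edgeR). Col6a3, on chromosome 1 from 90765923 to 90843971, had 1060, 1623 and 1376 against 2095, 2182 and 2313 counts. Its log2 fold change was -0.61 (SE 0.14, adjusted p = 0.0497 by edgeR), and this call was lost in 8 of 12 alternative analyses, with adjusted p up to 0.158. The Col6a1 call was lost in 1 of 12, without MSR1 WT replicate 1, at an adjusted p of 0.0633. The Col6a2 call was lost in 4 of 12, with adjusted p up to 0.0926.

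The other type VI genes lie in a row on chromosome 9 and were hardly counted. Col6a4 had 4 counts in each MSR1 KO library against 12, 20 and 20 in MSR1 WT, a log2 fold change of -1.98 (SE 0.57, adjusted p = 0.0975 by edgeR), and its neighbours Col6a5 and Col6a6 were at 0. Over the 4 tested type VI genes the median log2 fold change was -0.84, 3 were lower at an adjusted p under 0.05, and all 4 had no overlap between the groups.

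Among the FACIT collagens, Col12a1 was the most abundant and the only one lower at an adjusted p under 0.05. Type XII collagen binds to the surface of type I fibrils. Col12a1 (chromosome 9, 79598991 to 79718831) had 4637, 6772 and 5160 counts in MSR1 KO against 10441, 10069 and 10393 in MSR1 WT. It stood at 137 ± 30.3 against 239 ± 23.2 CPM (SD, n = 3 each). Its log2 fold change was -0.81 (SE 0.15, adjusted p = 0.0275 by edgeR with Benjamini-Hochberg adjustment), and the call was lost in 6 of 12 alternative analyses. Col16a1 had 290, 487 and 494 against 659, 745 and 663 counts with no overlap after scaling and a log2 fold change of -0.62 (SE 0.16, adjusted p = 0.0656 by edgeR). Col14a1, a further fibril-associated collagen, had 40, 48 and 31 against 124, 102 and 46 counts. Its log2 fold change was -1.07 (SE 0.42), and MSR1 WT replicate 3 overlapped the MSR1 KO libraries. Col20a1 was near 0 at -0.04 (SE 0.38). Over the 6 tested FACIT genes, 1 was lower at an adjusted p under 0.05 and 3 by the study's definition (2.66% and 5.05% of all tested genes). Their median log2 fold change was -0.72.

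Col8a1 had the lowest adjusted p of the collagen genes. Type VIII is a short-chain collagen that forms hexagonal lattices beneath endothelium and in vessel walls. Col8a1 lies on chromosome 16 from 57624258 to 57754737 and had 1101, 1496 and 1219 counts in MSR1 KO against 2831, 2878 and 2795 in MSR1 WT. The MSR1 KO libraries held 31.5 ± 5.72 CPM and the MSR1 WT libraries 65.7 ± 4.36 CPM, a log2 fold change of -1.06 (SE 0.13, adjusted p = 0.0103 by edgeR with Benjamini-Hochberg adjustment). The call was lost only without MSR1 WT replicate 1, at an adjusted p of 0.0556. Its partner Col8a2 had 16 and 6 counts in MSR1 WT replicates 1 and 3 and 0 in the other libraries. Col10a1, the collagen of hypertrophic cartilage, had 0, 38 and 13 against 47, 36 and 44 counts.

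The multiplexin collagens showed no difference that could be told from the spread. Col18a1, a basement membrane proteoglycan from which endostatin is released, had 485, 751 and 788 counts in MSR1 KO against 643, 1019 and 743 in MSR1 WT, a log2 fold change of -0.16 (SE 0.16). Col15a1 had 51, 53 and 60 against 56, 41 and 64 counts, a log2 fold change of 0.10 (SE 0.32). The tested genes under 1 CPM other than Col6a4 had log2 fold changes between -1.25 and 0.41 and none passed either definition. Of the transmembrane collagens none was tested. Col25a1 had 4, 4 and 3 counts in MSR1 KO and 0 in each MSR1 WT library.

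Levels between genes were compared as CPM per kilobase of exon. In MSR1 WT, Col1a1 stood at 89.3 ± 11.6, Col1a2 at 54.6 ± 4.40 and Col5a2 at 33.9 ± 3.90 CPM per kilobase (SD, n = 3). Next came Col6a1 at 20.5 ± 0.876, Col4a1 at 18.8 ± 2.88, Col3a1 at 18.5 ± 3.27, Col12a1 at 15.7 ± 1.52, Col5a1 at 14.3 ± 2.07 and Col4a2 at 14.1 ± 1.92, and each of these lay within the spread of the next. Col8a1 followed at 8.38 ± 0.557 and Col6a2 at 7.85 ± 0.833, again within their spread. The order depends on the length used. With the longest transcript in place of all exon bases, Col1a2 stood above Col1a1, at 127 against 98.8 CPM per kilobase. The Col1a1 to Col1a2 level ratio per length in MSR1 WT was 1.63 ± 0.09 by all exon bases and 0.777 ± 0.0429 by the longest transcript, so the proportion of the type I chains cannot be read from these counts.

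The sum over all collagen genes gives the same direction with an order of libraries that recurs in most members. The summed level was 1785, 2368 and 1845 CPM in MSR1 KO and 2977, 2413 and 2739.6 CPM in MSR1 WT, which is 1999 ± 321 against 2709.9 ± 283 (SD, n = 3 each). This corresponded to 0.177% to 0.235% of the library's counts in MSR1 KO and 0.246% to 0.299% in MSR1 WT. MSR1 KO replicate 2 was the highest and MSR1 WT replicate 2 the lowest library of its group, and their sums lay close together. MSR1 KO replicate 2 was the highest of its group in 18 of the 23 genes with at least 1 CPM, and MSR1 WT replicate 2 the lowest of its group in 17. Without MSR1 KO replicate 2, the median log2 fold change of the tested collagen genes was -0.53 instead of -0.39.

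Each class was also set against the fibrillar class of the same library. Type VI counts relative to fibrillar counts were 0.0808, 0.0811 and 0.0814 in MSR1 KO against 0.0987, 0.111 and 0.115 in MSR1 WT. FACIT counts relative to fibrillar counts were 0.107, 0.106 and 0.0909 against 0.129, 0.136 and 0.143, and in MSR1 WT replicate 1, for instance, 10441 of the 11392 FACIT counts were Col12a1. Neither pair of groups overlapped, although MSR1 KO replicate 2 and MSR1 WT replicate 2 had nearly the same total of collagen. Basement membrane counts relative to fibrillar counts overlapped, at 0.135, 0.116 and 0.141 against 0.122, 0.117 and 0.133. These class ratios were described without a test.

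**Figure D4:**
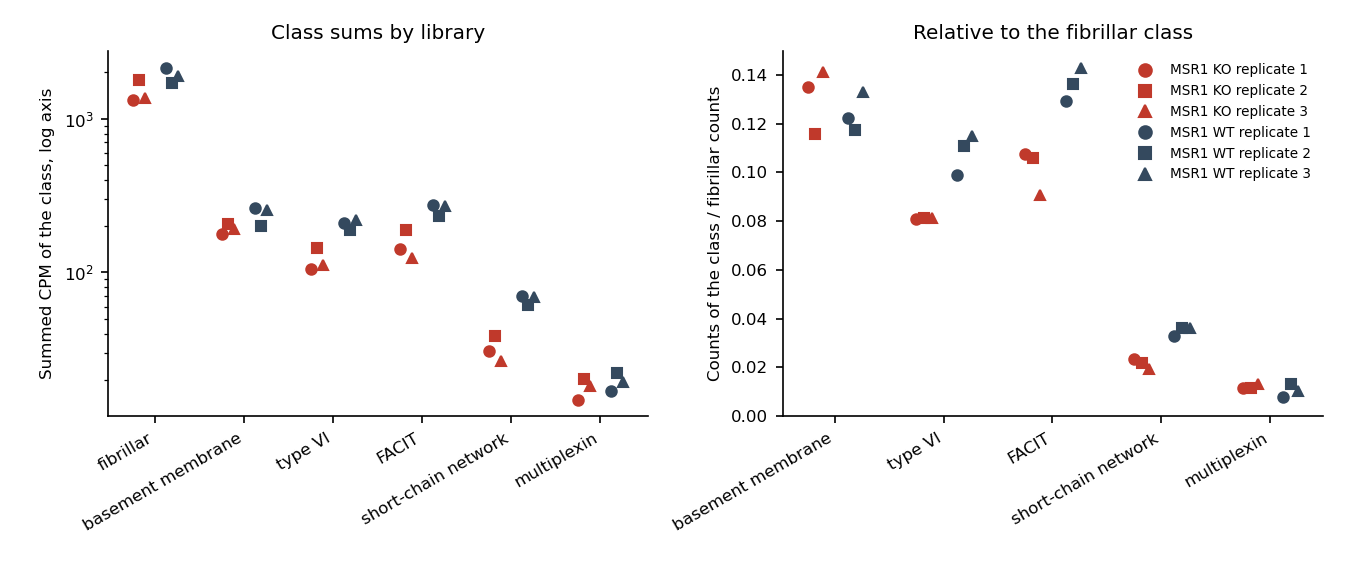
The left panel gives the summed CPM of 6 collagen classes in each library (log axis), and the right panel gives the counts of 5 classes divided by the fibrillar counts of the same library. On the right, type VI stands at 0.0808 to 0.0814 in MSR1 KO and at 0.0987 to 0.115 in MSR1 WT, whereas the basement membrane points of the groups overlap.

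Single genes were also set against Col1a1 in the same library, by a ratio that scaling does not change. The Col8a1 to Col1a1 count ratio was 0.0714, 0.0636 and 0.0581 in MSR1 KO against 0.104, 0.119 and 0.116 in MSR1 WT. The Col12a1 to Col1a1 ratio was 0.301, 0.288 and 0.246 against 0.382, 0.416 and 0.431. The Col6a1 to Col1a1 ratio was 0.107, 0.101 and 0.108 against 0.137, 0.168 and 0.159. In all, 17 count ratios between collagen genes were compared, and 12 did not overlap between the groups, each with an exact two-sided permutation p of 0.1, the smallest that 3 against 3 libraries allow (0.142 after Benjamini-Hochberg adjustment over the 17). Of these 12, 11 were ratios to Col1a1 that were lower in MSR1 KO, also for Col1a2, Col2a1, Col3a1, Col5a1, Col5a2, Col6a2, Col6a3 and Col16a1. They share Col1a1 as denominator and are not independent of each other. The numerators included all 6 collagen genes lower at an adjusted p under 0.05, with log2 fold changes of -1.10 to -0.61 against -0.26 for Col1a1. The lower ratios of those genes thus largely restate their log2 fold changes. How often such ratios part the groups for other genes was not tested. The ratios of Col4a1 and Col18a1 to Col1a1 overlapped, with an exact permutation p of 0.7 for each.

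Count ratios were also taken for 5 pairs of chains that assemble together. The Col6a2 to Col6a1 count ratio was 0.665, 0.727 and 0.672 in MSR1 KO against 0.764, 0.671 and 0.746 in MSR1 WT. The Col5a2 to Col5a1 ratio was 2.58, 2.71 and 2.83 against 2.63, 2.80 and 2.63, and the Col4a2 to Col4a1 ratio was 0.666, 0.696 and 0.716 against 0.625, 0.677 and 0.698. These 3 ratios overlapped between the groups (exact permutation p of 0.3, 0.9 and 0.5). The Col6a3 to Col6a1 ratio did not overlap, at 0.642, 0.685 and 0.606 in MSR1 KO against 0.560, 0.538 and 0.602 in MSR1 WT, with all MSR1 KO values higher (exact permutation p = 0.1). Nor did the ratio of the type I chains, Col1a2 to Col1a1, at 1.07, 1.04 and 1.05 against 1.11, 1.24 and 1.14, with all MSR1 KO values lower (exact permutation p = 0.1). Whether these pairs differ from the other ratios was not tested.

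The enzymes and chaperones that modify and fold procollagen were in part lower as well. Of 26 tested genes 5 were lower at an adjusted p under 0.05, where 2.66% of all tested genes were lower and 2.25% higher, and the median log2 fold change was -0.36. P3h2 and P3h3, of the prolyl 3-hydroxylase family, had log2 fold changes of -1.35 and -0.65, and P3h4, a non-enzymatic relative, had -0.86. Plod2, the lysyl hydroxylase that prepares the chain ends for crosslinks, had -0.48, and Sec24d, a coat protein of the vesicles that export procollagen, had -0.51. Serpinh1, the collagen chaperone HSP47, had 2907, 2500 and 2930 counts against 7548, 4024 and 6768 and did not pass, with a log2 fold change of -1.06 (adjusted p = 0.057 by edgeR), and it was singled out after its values were seen. The most abundant members per exon length, P4hb and Sparc, had -0.13 and -0.38.

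Among the genes of procollagen processing and crosslinking, 4 of 16 tested were lower and 1 was higher, both at an adjusted p under 0.05 (2.66% and 2.25% of all tested genes) and by the study's definition (5.05% and 3.59%). Lox, which oxidises lysines for crosslinking, had 5141, 6949 and 6513 counts in MSR1 KO against 13701, 12383 and 12486 in MSR1 WT, a log2 fold change of -0.97 (SE 0.12, adjusted p = 0.00918 by edgeR with Benjamini-Hochberg adjustment). Its relative Loxl1 had -0.78, the procollagen N-proteinase Adamts2 had -0.64 and the collagen-binding proteoglycan Bgn had -0.76. Tgm2, a transglutaminase that is also abundant in macrophages, was higher with a log2 fold change of 0.68 and 11372, 16741 and 14205 against 8035, 11599 and 8825 counts.

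Of 14 tested genes of collagen receptors and uptake, 4 were lower at an adjusted p under 0.05 (2.66% of all tested genes). The study's definition gave 2 lower and 2 higher (5.05% and 3.59% of all tested genes), the higher ones being the collagen-binding integrin gene Itga2 (1.03) and the inhibitory collagen receptor gene Lair1 (0.74), which did not pass the adjusted test (adjusted p of 0.128 and 0.129 by edgeR) and are named after their values were seen. The collagen-binding receptor kinases Ddr1 and Ddr2 had log2 fold changes of -1.06 and -0.53. Mrc1, the macrophage mannose receptor that also internalises collagen, had -0.39, and Cd36, a scavenger receptor that binds collagen, had -0.32. Mrc1 and Cd36 were the most abundant members per exon length. Of 14 tested genes of collagen breakdown, 3 were lower and 1 was higher at an adjusted p under 0.05 (2.66% and 2.25% of all tested genes), and 1 was lower and 1 higher by the study's definition. The proteases Ctsk and Ctsl and the inhibitor Timp2 were lower at -0.85, -0.52 and -0.48, and the inhibitor Timp3 was higher at 0.59. Ctsb and Ctss, the most abundant members per exon length, had 0.00 and 0.37 and did not pass.

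MSR1 itself has a collagen-like domain, and Msr1 was the one past the adjusted test among 16 tested genes for proteins with such a domain that are not collagens. Its counts were 2118, 1825 and 2000 in MSR1 KO and 7543, 9163 and 9219 in MSR1 WT. The log2 fold change of Msr1 was -2.02 (SE 0.14, adjusted p = 0.00124 by edgeR with Benjamini-Hochberg adjustment). Reads on Msr1 thus persisted in the MSR1 KO libraries, at an unknown part of the gene. The other 15 did not pass, and the most abundant of them per exon length, the complement genes C1qb and C1qa, had 0.28 and 0.38. The median of the list was -0.02.

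**Figure D5:**
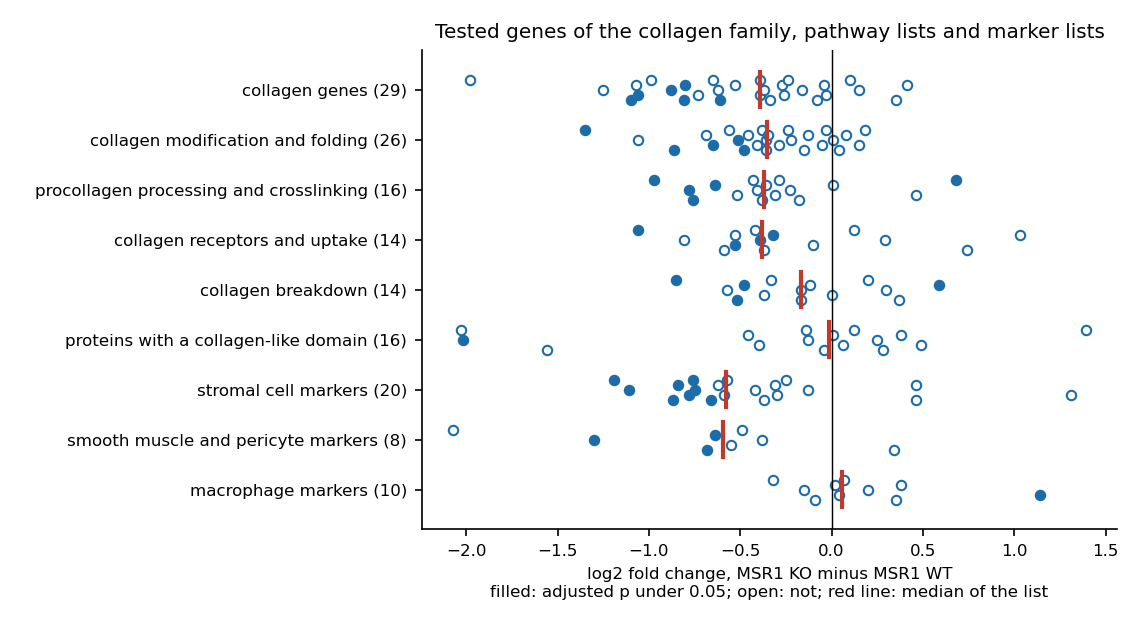
Each point is the log2 fold change (MSR1 KO minus MSR1 WT) of a tested gene in the collagen family, 5 pathway lists and 3 marker lists, with the number of tested genes in parentheses, filled points at an adjusted p under 0.05 and a red line at the median. The medians are -0.39 for the collagen genes, -0.58 for stromal markers, -0.60 for smooth muscle and pericyte markers and 0.06 for macrophage markers.

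Markers of other cell types were set beside these results, since the libraries were labelled as macrophages. Macrophage markers were high and mostly alike in the groups: Csf1r, Adgre1, Cd68 and Lyz2 had log2 fold changes between -0.15 and 0.07. Of the 10 markers 1, Fcgr1, was higher at an adjusted p under 0.05, at 1.14 (2.25% of all tested genes were higher). The summed macrophage marker level was 24404 to 25401 CPM in MSR1 KO and 24335 to 26879.9 CPM in MSR1 WT. All 20 stromal cell markers had counts, though Lum, Twist2 and Mfap5 had a mean under 1 CPM. The summed levels were 1203 to 1281 CPM in MSR1 KO against 1737 to 1981 CPM in MSR1 WT. Igfbp4 alone held 496 to 629.9 CPM in MSR1 KO and 608 to 750.2 CPM in MSR1 WT, and its groups overlapped. Of the 20 stromal markers, 8 were lower at an adjusted p under 0.05 (2.66% of all tested genes), and the median log2 fold change was -0.58. Of the defining markers, Pdgfra (-1.19), Pdgfrb (-0.87), Cxcl12 (-1.11) and Prrx1 (-0.66) passed, and Postn (-0.37), Dcn (-0.31), Lepr (-0.25) and Lum (0.46) did not. Bgn and Loxl1, counted above among the crosslinking genes, are in this list too, and Fbn1 (-0.84) and Cdh11 (-0.75) were the others that passed. Thy1, a surface marker by which the BMSCs were identified, differed in the other direction, with 224, 239 and 328 counts in MSR1 KO against 84, 69 and 179 in MSR1 WT, a log2 fold change of 1.31 that did not pass (adjusted p = 0.0907 by edgeR), and it was singled out after its values were seen. MSR1 KO replicate 2 was the highest of its group in 12 of the 20 stromal markers and MSR1 WT replicate 2 the lowest in 14, as for the collagen genes.

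Smooth muscle and pericyte markers summed to 613 to 752 CPM in MSR1 KO and 976 to 1233 CPM in MSR1 WT. Of 8 tested, Acta2 (-0.68), Tagln (-0.64) and Notch3 (-1.30) passed as lower, against 2.66% of all tested genes. The defining markers Myh11 (-2.07), Cnn1 (-0.55) and Rgs5 (0.34) did not. Osteoblast markers summed to 20.8 to 24.5 CPM in MSR1 KO and 21.2 to 25.1 CPM in MSR1 WT. Runx2 had a log2 fold change of 0.02, Sp7 had -0.25 and Ibsp had 1.39, none past the adjusted test, and Bglap, the osteocalcin gene, was at 0 counts in every library. Endothelial markers summed to 71.1 to 83.8 CPM in MSR1 KO and 53.6 to 80.7 CPM in MSR1 WT, with Cdh5 at 0.37, Kdr at 0.79, Tek at 0.31 and Vwf at -1.36, none past the adjusted test. Neutrophil markers summed to 636 to 1039 CPM in MSR1 KO and 419 to 799 CPM in MSR1 WT, and the defining markers Ly6g, Camp, Ngp and Elane had 1.30, 0.65, 0.27 and 0.25. At most 19 counts in any library were found for Adipoq, Plin1 and Lep (adipocyte), Cd79a and Pax5 (B cell) and Hba-a1 and Hbb-bs (erythroid). Cd79b, also in the B cell list, had 742, 741 and 1043 counts in MSR1 KO against 662, 945 and 624 in MSR1 WT. The B cell list summed to 19.5 to 23.2 CPM in MSR1 KO and 15.8 to 20.2 CPM in MSR1 WT. The part of the stromal and smooth muscle transcripts in the collagen differences was not tested. In such bulk libraries, fewer collagen-making cells and less collagen RNA per cell cannot be told apart.

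Total counts ranged from 36143518 to 47417448 per library. Strand was not given for the counting, and reads of overlapping genes on opposite strands cannot be separated. The share of exon bases overlapped by a gene on the other strand was 2.5% for Col5a1, 0.982% for Col4a2 and 0.295% for Col4a1, and 1.44% of Col3a1 exon bases overlapped a gene on the same strand. It was 0 for Col6a1, Col6a2, Col6a3, Col8a1, Col12a1 and Col2a1.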

How the data were processed

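RNA-seq counts of 3 MSR1 KO and 3 MSR1 WT libraries were analysed. Per the submitters' processing notes, which name fastp 0.17.1, HISAT2 2.1.0, DESeq2 1.18.1 and R 3.4.3, and the paper's methods, which name TopHat, reads were aligned and counted. How reads were counted, whether by strand, and the build used are not given in the sources used here. The authors deposited raw counts per gene and library. The deposited table also holds a signal per library (counts after division by size factors), the log2 fold change of the authors' own comparison, and their p-value and adjusted p-value, which were not used. Positions are from GENCODE M21 (GRCm38), in which 52403 of the 52550 identifiers were found and 49909 had the same start and end. All value columns were mapped (0 were left out), and 0 rows lacked a gene name.

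Counts were filtered with filterByExpr, scaled by TMM and tested with glmQLFTest of edgeR 4.0.16 in R 4.3.3, with Benjamini-Hochberg adjustment over 16402 genes. The SE was obtained by dividing the log2 fold change by the root of its F statistic. CPM values are TMM-scaled. Total counts ranged from 36143518 to 47417448, and the limit of 3 counts for a count of 0 covers counting error only. Tested on simulated data, edgeR recovered 133 of 200 genes changed 2-fold (66.5%) among 16029 tested, with 7 other calls. The alternatives were DESeq2 1.42.0, other scalings and filters, the replicate number as a block and each library left out.

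Collagen genes with a mean of at least 1 CPM were named with values, with counts in every library for those past an adjusted p under 0.05, the most abundant of each class and the chains of types I, III, IV, V and VI. Of each pathway list, genes past the test (up to 5) and the 2 most abundant per exon length were named, and of each marker list the defining markers, apart from some that are not reported here. The members, lists and tests were chosen with earlier results of these data known. Promoter windows are RefSeq's on GRCm38.p6. Samples were grouped by their labels.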

Additional observations from a re-analysis of the deposited data

How the results depend on the processing

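The 4 medians by class kept their sign under all 12 alternative analyses, and so did the median over all tested collagen genes, which ranged from -0.53 to -0.28 with a library left out. The number of collagen genes lower at an adjusted p under 0.05 was 6 in the analysis as reported, 9 with DESeq2's Wald test, 5 to 7 with another scaling or filter, and 0 to 7 with a library left out. With the replicate number as a block it was 2 (Col6a1 and Col8a1). The numbers did not pair the libraries: the deviations of same-numbered libraries correlated at -0.0261, 0.0187 and -0.0048, and not every library correlated best with its own number. By the study's definition, 6 to 12 were lower and 0 to 1 higher with a library left out. With no filter on low counts 1 was higher, Col25a1, with at most 4 counts in any library, and without MSR1 WT replicate 2 it was Col28a1. Without the most abundant member, Col1a2, the summed level was 1483 CPM in MSR1 KO and 2032 CPM in MSR1 WT. Of 276 recomputed log2 fold changes of the 23 genes with at least 1 CPM, 236 stayed on the same side of the threshold with the same sign, 26 lost and 7 gained an adjusted p under 0.05, and 7 changed sign without passing the test. The changes of sign came with libraries left out: Col11a2 ranged from -0.03 to 0.43, Col15a1 from -0.11 to 0.28, Col20a1 from -0.46 to 0.16 and Col27a1 from -0.74 to 0.23. The cause of these changes was not tested. Genes under about 1 CPM are limited by depth, and with 3 libraries a group 1 library can decide a call.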
